A study of Homo sapiens with 3 samples.

Results

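The 9 genes described here are targets of the stress-activated transcription factor p53: MDM2, PPM1D, BBC3, BAX, PLK3, GADD45A, BTG2, ZMAT3 and SESN1. They were taken by gene symbol, and all 9 were found among the 20332 genes of the deposited table. Their RNA was sequenced in HCC827 cells, a long-established human line from a lung adenocarcinoma that is driven by mutant EGFR and is catalogued as carrying a mutated p53 gene. The 3 groups, with 1 library each, were compound 1 at 5 μM for 24 h, compound 2 at 5 μM for 24 h, and DMSO vehicle, for which the labels gave no time. The series title calls the compounds daphnane diterpenoids, which are natural products of plants, and ties them to the DNA damage response run by the kinase ATR. All cells were of the same line, and the labels do not say whether a library came from 1 culture or from several.

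p53 is a transcription factor that is kept scarce by MDM2, the ubiquitin ligase that marks it for destruction and that is itself a p53 target. When DNA is damaged, the kinases ATM, ATR and CHK2 and their relatives modify p53, which then binds response elements near its target genes. The targets divide by role into feedback inhibitors of p53 (MDM2, PPM1D), mitochondrial death effectors (BBC3, BAX), cell cycle and checkpoint genes (PLK3, GADD45A, BTG2) and genes of redox control and RNA stability (SESN1, ZMAT3). Several of them also respond to stress signals that do not pass through p53. Only RNA was measured, so neither the amount nor the activity of the p53 protein is given by these data.

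Promoter sequences are shown for MDM2 and SESN1, which held a recognisable p53 element near a transcription start. Those of PLK3 and BBC3, the members with the highest log2 ratios against DMSO, are shown too. BAX is added to set beside BBC3, the other death effector. RefSeq windows on GRCh38.p14, each 300 bases long with 250 bases before the start and 50 after it, were at hand for 8 of the 9 members, in 14 windows. The p53 response element was searched as a pair of 10-base half-sites of the p53 consensus with no spacer, which reads the same on both strands. Up to 3 mismatches in 20 bases were allowed, with the C and the G of each core kept. A site with another letter in a core was not marked, so a window may hold p53 sites besides the one in capitals. It was found in 3 of the 14 member windows and in 248 (1.14%) of the 21670 windows of genes in the table. The 3 windows belonged to MDM2, with a pair of overlapping windows that hold the same element, and to SESN1. By gene, 2 of the 8 members with a window thus had an element. The 21670 windows belong to 15392 genes, and the share of these genes with an element was not counted. The 1.14% of windows is therefore no matching background for the count by gene. The MDM2 window around its second start, within the gene, lies at chr12:68808767-68809066 on the plus strand, and its element, in capitals, begins 94 bases before the start with 2 mismatches. The SESN1 window around one of its internal starts lies at chr6:109008939-109009238 on the minus strand, and its element, in capitals, begins 49 bases before the start with 3 mismatches.
MDM2: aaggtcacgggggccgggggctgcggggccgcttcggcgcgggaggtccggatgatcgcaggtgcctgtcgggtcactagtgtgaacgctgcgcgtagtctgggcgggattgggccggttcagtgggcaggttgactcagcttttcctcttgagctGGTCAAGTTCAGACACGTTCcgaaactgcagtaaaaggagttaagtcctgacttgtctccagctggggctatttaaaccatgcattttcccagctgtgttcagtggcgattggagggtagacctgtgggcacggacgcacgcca
SESN1: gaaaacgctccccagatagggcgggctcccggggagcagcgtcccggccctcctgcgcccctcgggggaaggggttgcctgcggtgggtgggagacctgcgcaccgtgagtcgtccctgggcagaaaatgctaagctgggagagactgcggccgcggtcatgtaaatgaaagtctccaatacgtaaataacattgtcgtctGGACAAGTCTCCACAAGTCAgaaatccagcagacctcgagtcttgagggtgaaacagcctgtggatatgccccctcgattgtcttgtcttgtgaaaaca

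No p53 element within these limits was in the windows of PLK3, BBC3, BAX, BTG2, PPM1D or ZMAT3, which says only that these letters are not in these windows. The other motifs below were chosen after the sequences had been read. The PLK3 window, at chr1:44800127-44800426 on the plus strand, holds 1 match to TGATGNAA, the core of the element that heterodimers of C/EBP and ATF proteins bind, in capitals below. That motif, searched on both strands, is in 2.70% of the windows. The windows of the death effectors both hold the E-box CACGTG, which reads the same on both strands, is in 8.33% of the windows and is also in capitals. BBC3, at chr19:47232618-47232917 on the minus strand, holds 1 copy and BAX, at chr19:48954625-48954924 on the plus strand, holds 4. At least 3 copies are in 0.138% of the windows, or 30 of 21670. No member window held more than 1 of the 3 kinds of motif.
PLK3: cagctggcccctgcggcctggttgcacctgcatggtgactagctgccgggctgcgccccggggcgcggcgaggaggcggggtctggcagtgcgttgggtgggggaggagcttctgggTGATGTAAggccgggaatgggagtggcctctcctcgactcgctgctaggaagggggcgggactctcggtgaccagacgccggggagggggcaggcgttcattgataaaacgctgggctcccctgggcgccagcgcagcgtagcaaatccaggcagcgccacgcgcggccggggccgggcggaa
BBC3: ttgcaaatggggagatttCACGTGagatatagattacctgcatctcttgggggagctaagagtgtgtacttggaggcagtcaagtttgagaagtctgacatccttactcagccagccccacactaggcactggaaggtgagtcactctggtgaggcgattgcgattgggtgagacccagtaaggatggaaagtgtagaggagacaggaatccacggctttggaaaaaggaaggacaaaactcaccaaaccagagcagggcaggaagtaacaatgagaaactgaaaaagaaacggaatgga
BAX: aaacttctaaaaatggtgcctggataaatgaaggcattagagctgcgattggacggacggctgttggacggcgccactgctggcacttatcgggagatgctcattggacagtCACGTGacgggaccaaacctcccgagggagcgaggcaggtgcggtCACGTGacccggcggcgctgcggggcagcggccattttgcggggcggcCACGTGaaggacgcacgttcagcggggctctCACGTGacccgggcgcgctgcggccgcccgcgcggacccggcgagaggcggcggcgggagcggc

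Levels are given in TPM, a share of the length-corrected signal of a library, so that levels of different genes can be set side by side. Differences are log2 ratios of TPM + 1, and a gene is counted as higher or lower where it is at least 2-fold apart on that scale, an absolute log2 ratio of 1. Replicate error cannot be estimated from 1 library a group, so no difference was tested, and each is one between 2 libraries. Both comparisons with DMSO share the DMSO library. In bulk RNA, a change in the share of cells that use a gene and a change in RNA per cell cannot be told apart. The libraries were alike in breadth, with 14154 to 14473 genes above 0. The mitochondrially encoded genes held 2.00% of the signal after compound 1, 2.74% after compound 2 and 4.24% in the DMSO library. With those genes and the most abundant ones left out of the scaling, 4 of 9 members were past 2-fold upwards for either compound, as without that step. Of all genes, 14.9% after compound 1 and 12.8% after compound 2 were then higher. All 5 epithelial markers were above 0 in every library, but they were not level. The keratin genes KRT8 and KRT18 were at least 2-fold lower after both compounds and KRT19 after compound 2, while EPCAM and CDH1 stayed within 2-fold, with log2 ratios of 0.19 to 0.58. The part of either shift in the values of the members was not tested beyond that scaling. The summed level of 4 leukocyte markers was 0.083 to 2.99 TPM, of 4 fibroblast markers 0.756 to 1.93 TPM and of 3 endothelial markers 0.074 to 0.336 TPM. COL1A2, DCN and CDH5 were at 0 in all 3 libraries, and the defining leukocyte gene PTPRC did not pass 0.27 TPM. Most of the leukocyte sum was LYZ, at 1.52, 0.083 and 1.86 TPM in the compound 1, compound 2 and DMSO libraries. LYZ was past 2-fold lower after compound 2 (log2 ratio -1.40). Most of the fibroblast sum was COL1A1, at 0.728, 1.17 and 1.90 TPM in the same order.

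After compound 1, the members PLK3, BBC3, MDM2 and ZMAT3, 4 of 9, stood at least 2-fold above the DMSO library and no member stood 2-fold below it. Over all 11600 genes that averaged 1 TPM or more, 14.7% passed 2-fold upwards and 8.09% downwards. After compound 2, PLK3, BBC3, ZMAT3 and MDM2 passed 2-fold upwards and no member downwards, against 12.6% and 6.56% of all genes. Both comparisons use the same DMSO library, so a low DMSO value raises both ratios and the second is no independent repeat. Once the median trend with length and GC content had been taken out of the ratios, the split over all genes was 8.46% higher and 8.98% lower after compound 1, and 6.93% and 7.47% after compound 2. On that scale the count of members at least 2-fold higher was 2 of 9 after either compound, PLK3 and BBC3. The median log2 ratio of the 9 members was 0.30 after compound 1 and 0.48 after compound 2, beside 0.11 and 0.09 over all genes. The other 5 members, PPM1D, BAX, GADD45A, BTG2 and SESN1, lay between -0.44 and 0.48 in both comparisons. The members thus ranged from log2 ratios of -0.41 to 2.34 after compound 1 and of -0.44 to 2.74 after compound 2.

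**Figure D1:**
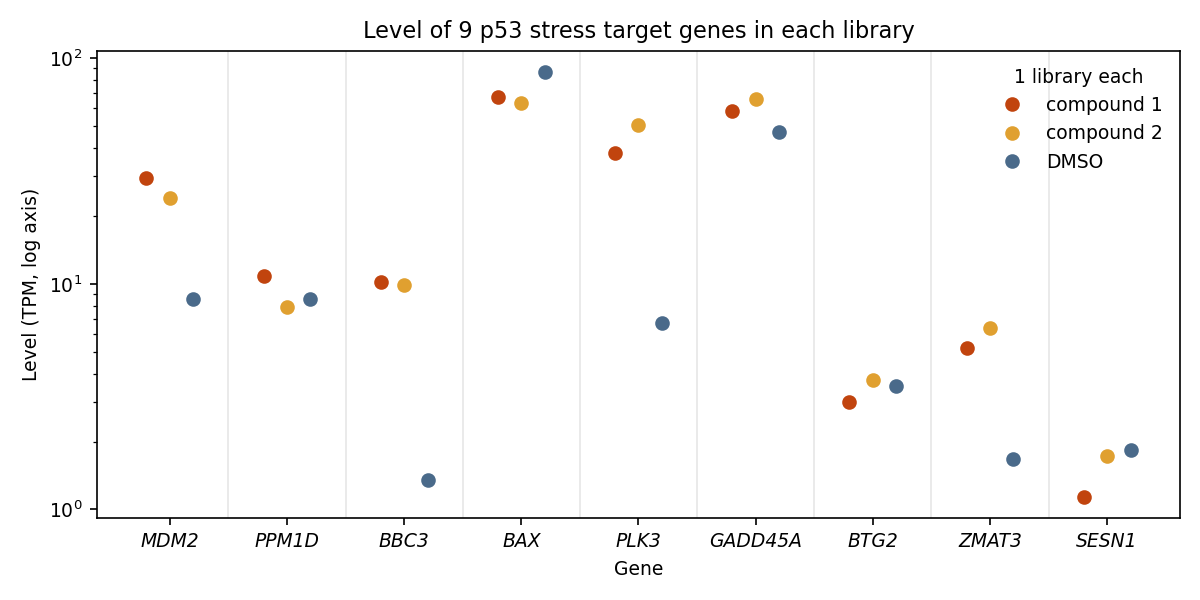
Level of each of the 9 genes in TPM, on a log axis, in the compound 1, compound 2 and DMSO libraries, 1 point per library and no error. For MDM2, BBC3, PLK3 and ZMAT3 both compound points sit well above the DMSO point, while the points of the other 5 genes lie close together.

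Among the feedback genes, MDM2 (ENSG00000135679, chromosome 12, 68808176 to 68850686 in GENCODE 29 on GRCh38, plus strand) was at 29.4 TPM after compound 1, 23.9 TPM after compound 2 and 8.55 TPM in the DMSO library. Both compound libraries were above the DMSO library, at 3.44-fold and 2.80-fold on the TPM scale. The log2 ratios of TPM + 1 were 1.67 and 1.38, higher than those of 95.9% and 94.3% of all genes. After the median trend in transcript length and GC content over all genes was subtracted, the same ratios of MDM2 were 0.76 and 0.55, under 2-fold. The longest MDM2 transcript in GENCODE is 12633 bases, with a GC content of 41.9%, and 14.6% of its 31-mers occur in other genes, with AC025423.2, which overlaps it on the same strand, the closest gene. CPM, a carboxypeptidase gene on the opposite strand, shares 133 of the 13284 exonic bases of MDM2 and was at 131, 90.2 and 45.4 TPM in the compound 1, compound 2 and DMSO libraries. Whether the counting used strand is not given in the sources used here, and the part of CPM in the MDM2 values was not tested.

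PPM1D (ENSG00000170836, chromosome 17, 60600183 to 60666280, plus strand) encodes WIP1, the phosphatase that removes activating phosphates from p53 and from the damage kinases. It was at 10.8 TPM after compound 1, 7.93 TPM after compound 2 and 8.60 TPM in the DMSO library. The DMSO value lay between those of the compounds, with log2 ratios of 0.29 and -0.10. In the DMSO library MDM2 and PPM1D were at nearly the same level, with MDM2 at 0.994 times PPM1D. That ratio of levels was 2.73 after compound 1 and 3.01 after compound 2. MDM2 was past 2-fold after both compounds and PPM1D after neither. Less the length and GC trend, neither gene was past 2-fold, with MDM2 at 0.76 and 0.55 and PPM1D at 0.01 and -0.38.

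The death effectors also differed from each other. BBC3 (ENSG00000105327, chromosome 19, 47220822 to 47232766, minus strand) encodes PUMA, a BH3-only protein that frees and activates the pore formers of mitochondria. It was at 10.2 TPM after compound 1, 9.85 TPM after compound 2 and 1.35 TPM in the DMSO library. On the TPM scale both compound libraries stood above DMSO, at 7.57-fold and 7.28-fold, the most for any member after compound 1. Its log2 ratios of TPM + 1 were 2.26 and 2.21, above 98.6% and 98.7% of all genes. In the DMSO library BBC3 was the lowest of the 9 members, and its rank among them was 6 after compound 1 and 5 after compound 2.

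BAX (ENSG00000087088, chromosome 19, 48954815 to 48961798, plus strand) encodes one of the proteins that open the outer mitochondrial membrane. Its level was 67.3 TPM after compound 1, 63.5 TPM after compound 2 and 86.8 TPM in the DMSO library. Both compound libraries lay below DMSO by less than 2-fold, with log2 ratios of -0.36 and -0.44. Less the length and GC trend, the ratio was 0.12 after compound 1 and 0.00 after compound 2, so no direction is given for BAX. BAX stood at 6.57 times the level of BBC3 after compound 1 and 6.45 times after compound 2, against 64.2 times in the DMSO library.

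**Figure D2:**
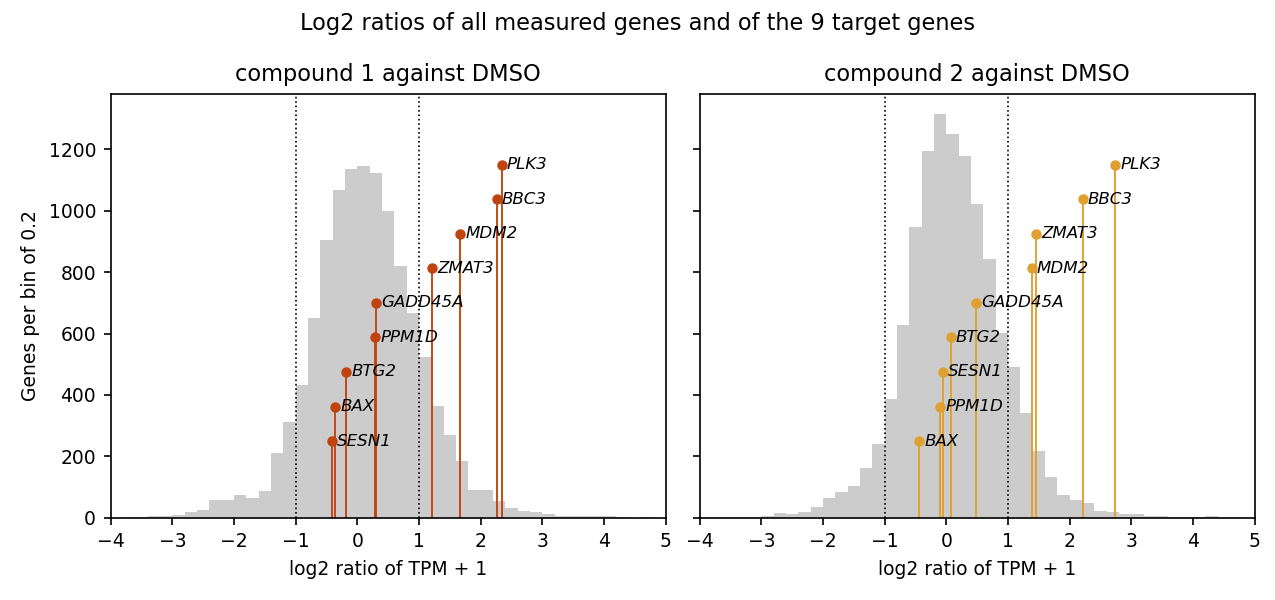
Histograms of the log2 ratio of TPM + 1 over 11600 genes, in bins of 0.2, for compound 1 against DMSO and compound 2 against DMSO. Vertical stems mark the 9 target genes (their heights only separate the names) and dotted lines mark 2-fold. PLK3 and BBC3 stand in the far right tail in both panels, and 5 of the 9 genes lie between the dotted lines.

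Of the cell cycle and checkpoint genes, PLK3 stood apart. PLK3 (ENSG00000173846, chromosome 1, 44800225 to 44805990, plus strand) encodes polo-like kinase 3, a stress-responsive relative of the mitotic kinase PLK1. It was at 38.0 TPM after compound 1, 50.6 TPM after compound 2 and 6.72 TPM in the DMSO library. Both compound libraries were far above the DMSO library, at 5.65-fold and 7.53-fold on the TPM scale. The log2 ratios of TPM + 1, 2.34 and 2.74, were above those of 98.8% and 99.5% of all genes and were the highest among the members in both comparisons. The gene on the opposite strand that overlaps PLK3, DYNLT4, was at 0.318, 0.182 and 0 TPM in the compound 1, compound 2 and DMSO libraries, and shares 78 of the 3479 exonic bases of PLK3.

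GADD45A (ENSG00000116717, chromosome 1, 67685061 to 67688338, plus strand) encodes a small protein that binds stress kinases and cell cycle proteins after damage. It was at 58.1 TPM after compound 1, 65.9 TPM after compound 2 and 47.1 TPM in the DMSO library. The compound libraries were above DMSO by 1.23-fold and 1.40-fold on the TPM scale, short of 2-fold, with log2 ratios of 0.30 and 0.48. These ratios were above those of 59.3% and 69.7% of all genes. BTG2 (ENSG00000159388, chromosome 1, 203305491 to 203309602, plus strand) encodes an antiproliferative protein that recruits the enzymes that shorten mRNA tails. It was at 3.0 TPM after compound 1, 3.76 TPM after compound 2 and 3.52 TPM in the DMSO library. The DMSO value lay between those of the compounds, with log2 ratios of -0.18 and 0.07, and neither sign held under every setting: the first was 0.03 less the length and GC trend, and the second -0.01 under upper-quartile scaling.

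The remaining pair acts in RNA stability and redox control. ZMAT3 (ENSG00000172667, chromosome 3, 179017223 to 179072279, minus strand) encodes a zinc finger protein that binds AU-rich RNA and affects splicing. It was at 5.19 TPM after compound 1, 6.38 TPM after compound 2 and 1.68 TPM in the DMSO library. Both compound libraries were above DMSO, at 3.09-fold and 3.80-fold on the TPM scale, with log2 ratios of TPM + 1 of 1.21 and 1.46. ZMAT3 has a long, AT-rich transcript of 9406 bases with a GC content of 39.5%, and less the length and GC trend its ratios were 0.24 and 0.53, under 2-fold. A pseudocount of 5 also put both under 2-fold. SESN1 (ENSG00000080546, chromosome 6, 108986437 to 109094819, minus strand) encodes sestrin 1, which restrains the growth kinase complex mTORC1 and supports antioxidant defence. It was the lowest member in both compound libraries, at 1.14 TPM after compound 1 and 1.72 TPM after compound 2, and was at 1.83 TPM in the DMSO library. The compound 1 value lay below the others, and the log2 ratios were -0.41 and -0.06.

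Reads per gene are not given in the table, but low values moved in steps that place 1 read per kb of transcript at about 0.108 TPM in the compound 1, 0.123 TPM in the compound 2 and 0.116 TPM in the DMSO library. Between 52.1% and 57.0% of the low values of genes with 1 transcript were whole reads to within 0.1 under those steps, which were fitted to the same values. On the longest transcript of each gene, the value of BBC3 would come from some 174, 147 and 21.4 reads in the compound 1, compound 2 and DMSO libraries. SESN1 would come from some 37.0, 49.2 and 55.5 reads, and BTG2 from some 75.3, 82.9 and 82.2. These are rough figures, because the transcripts in use are not known, and they cover no variation between cultures.

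**Figure D3:**
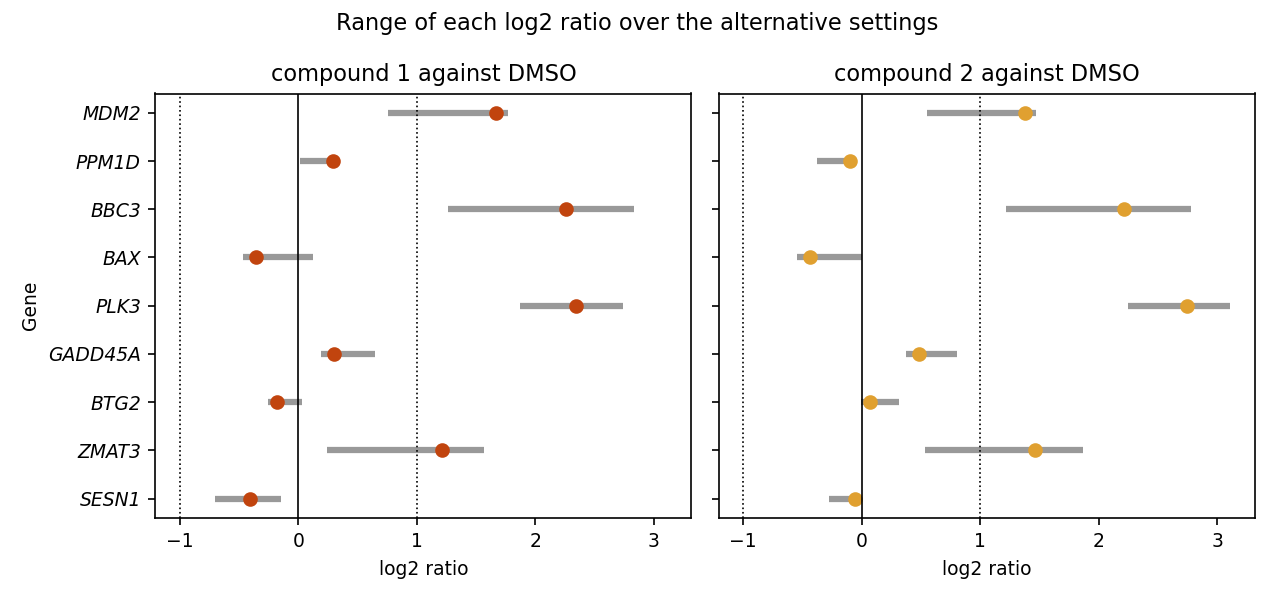
Log2 ratio of each of the 9 genes against DMSO (points) for compound 1 and compound 2, with grey bars from the lowest to the highest value over the alternative settings, and dotted lines at 2-fold. PLK3 and BBC3 stay above 2-fold along the whole bar in both panels, from 1.22 upwards, whereas the bars of MDM2 and ZMAT3 cross the line.

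The order of levels among the 9 members differed between the compound libraries and DMSO. In descending order, the compound 1 library held BAX, GADD45A, PLK3, MDM2, PPM1D, BBC3, ZMAT3, BTG2 and SESN1. The compound 2 library held GADD45A, BAX, PLK3, MDM2, BBC3, PPM1D, ZMAT3, BTG2 and SESN1. In the DMSO library the order was BAX, GADD45A, PPM1D, MDM2, PLK3, BTG2, SESN1, ZMAT3 and BBC3. Without replicates it cannot be said which neighbours in these orders differ beyond their spread, and PPM1D and MDM2 in the DMSO library were 8.60 and 8.55 TPM. The summed level of the 9 genes was 223 TPM after compound 1, 234 TPM after compound 2 and 166 TPM in the DMSO library. BAX and GADD45A made up 56.2% of that sum after compound 1, 55.4% after compound 2 and 80.6% in the DMSO library.

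The compounds were compared directly at the same dose and time, without the DMSO library. No member was 2-fold apart between compound 2 and compound 1, where 0.293% of all genes passed 2-fold upwards and 0.552% downwards after compound 2. The log2 ratios of the 9 members ran from -0.40 to 0.40, with a median of 0.18, against -0.01 over all genes. At one end was PLK3, at 50.6 TPM after compound 2 and 38.0 TPM after compound 1 (log2 ratio 0.40), with a ratio above that of 93.7% of all genes. At the other end was PPM1D, at 7.93 TPM after compound 2 and 10.8 TPM after compound 1 (-0.40), with only 7.70% of all genes below it. MDM2 was at 23.9 TPM after compound 2 and 29.4 TPM after compound 1 (-0.29). BBC3, at 9.85 TPM after compound 2 and 10.2 TPM after compound 1, was the closest of all (-0.05). No interval of any of these 9 differences can be given with 1 library per compound, so small ratios do not show that the compounds act alike.

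**Figure D4:**
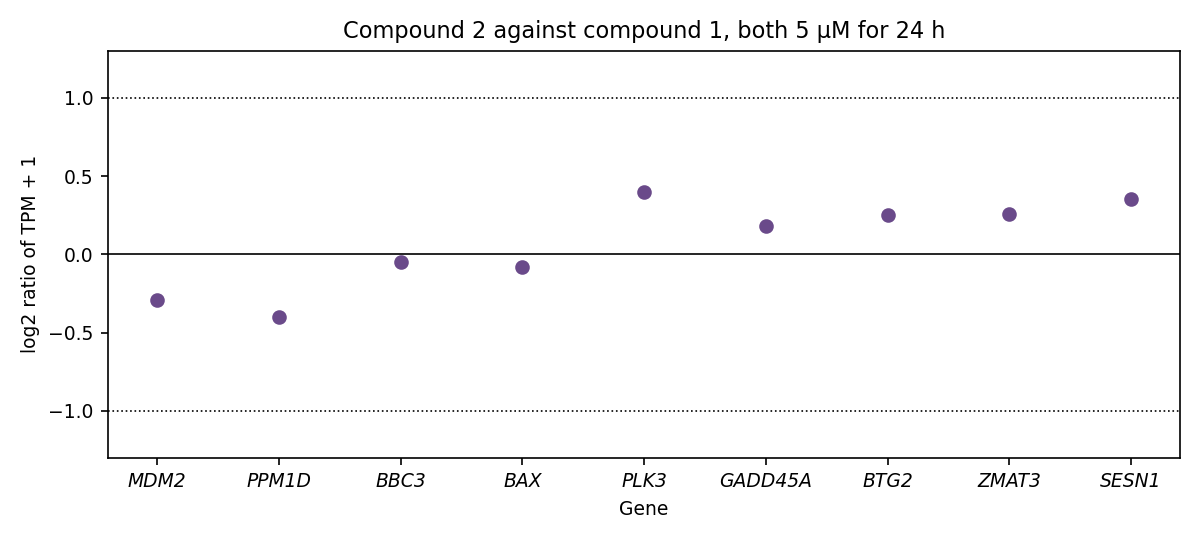
Log2 ratio of TPM + 1 of compound 2 over compound 1 for the 9 genes, both at 5 μM for 24 h, with dotted lines at 2-fold. All points lie between -0.40 and 0.40, with PLK3 at the upper and PPM1D at the lower end.

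The members were then set beside 26 other p53 targets, of which 22 averaged 1 TPM or more. After compound 1, 5 of the 22 passed 2-fold upwards and 3 downwards, with a median log2 ratio of 0.31, beside 14.7% and 8.09% of all genes. After compound 2, 5 were higher and 2 lower, with a median of 0.19, beside 12.6% and 6.56% of all genes. The 5 higher after compound 2 numbered 3 under median-of-ratios or upper-quartile scaling and with the trend taken out. Of all genes, 10.8%, 10.5% and 6.93% were then higher, in that order. CDKN1A, which encodes the cell cycle inhibitor p21, was at 349, 328 and 23.2 TPM in the compound 1, compound 2 and DMSO libraries. SESN2, a relative of SESN1, was at 103, 60.4 and 6.82 TPM, with log2 ratios of 3.74 and 2.97. Those ratios lie above every member's. RRM2B, a ribonucleotide reductase subunit gene, had log2 ratios of 1.74 and 1.65, and PMAIP1, which encodes the BH3-only protein NOXA, 1.45 and 1.08. GDF15, a secreted stress factor gene, was 2-fold higher after compound 1 but not compound 2 (1.67 and 0.53). It was at 39.2 TPM after compound 2 and 88.1 TPM after compound 1 (log2 ratio -1.15), and was the 1 gene of the 22 that was 2-fold apart between the compounds. TNFRSF10B, a death receptor gene, lay at the limit (0.99 and 1.02) and is named after its values were seen.

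Lower were NINJ1, which encodes a protein of membrane rupture (-1.34 and -1.04 after compound 1 and compound 2), the damage recognition gene DDB2 (-1.23 and -0.85) and the translesion polymerase gene POLH (-1.05 and -1.06). The other p53 targets thus held genes past 2-fold in both directions, whereas the 9 members held none that was lower. Of all genes, 8.09% were lower after compound 1 and 6.56% after compound 2. At such shares a list of 9 genes is too short to show a lack of lower genes. The members were also chosen with earlier results of these data known, so this contrast is a description only. Of 12 regulators of p53, all measured, 3 were higher and 1 lower after either compound, with medians of 0.36 and 0.48. Beside them, 14.7% of all genes were higher and 8.09% lower after compound 1, and 12.6% and 6.56% after compound 2. With the trend taken out, 1 regulator was higher after either compound, beside 8.46% and 6.93% of all genes. Under median-of-ratios and upper-quartile scaling 1 was higher after compound 2, beside 10.8% and 10.5% of all genes. HIPK2, a kinase that phosphorylates p53, was at 56.1, 58.1 and 11.7 TPM in the compound 1, compound 2 and DMSO libraries. RCHY1, a second ubiquitin ligase of p53, had log2 ratios of 1.13 and 1.07, and ATM 1.11 and 1.02. CHEK2, which encodes CHK2, was lower, at -1.23 and -1.47. MDM4, the partner of MDM2, was at 4.64, 5.25 and 2.85 TPM, so that MDM2 stood at 6.33, 4.55 and 2.99 times MDM4.

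**Figure D5:**
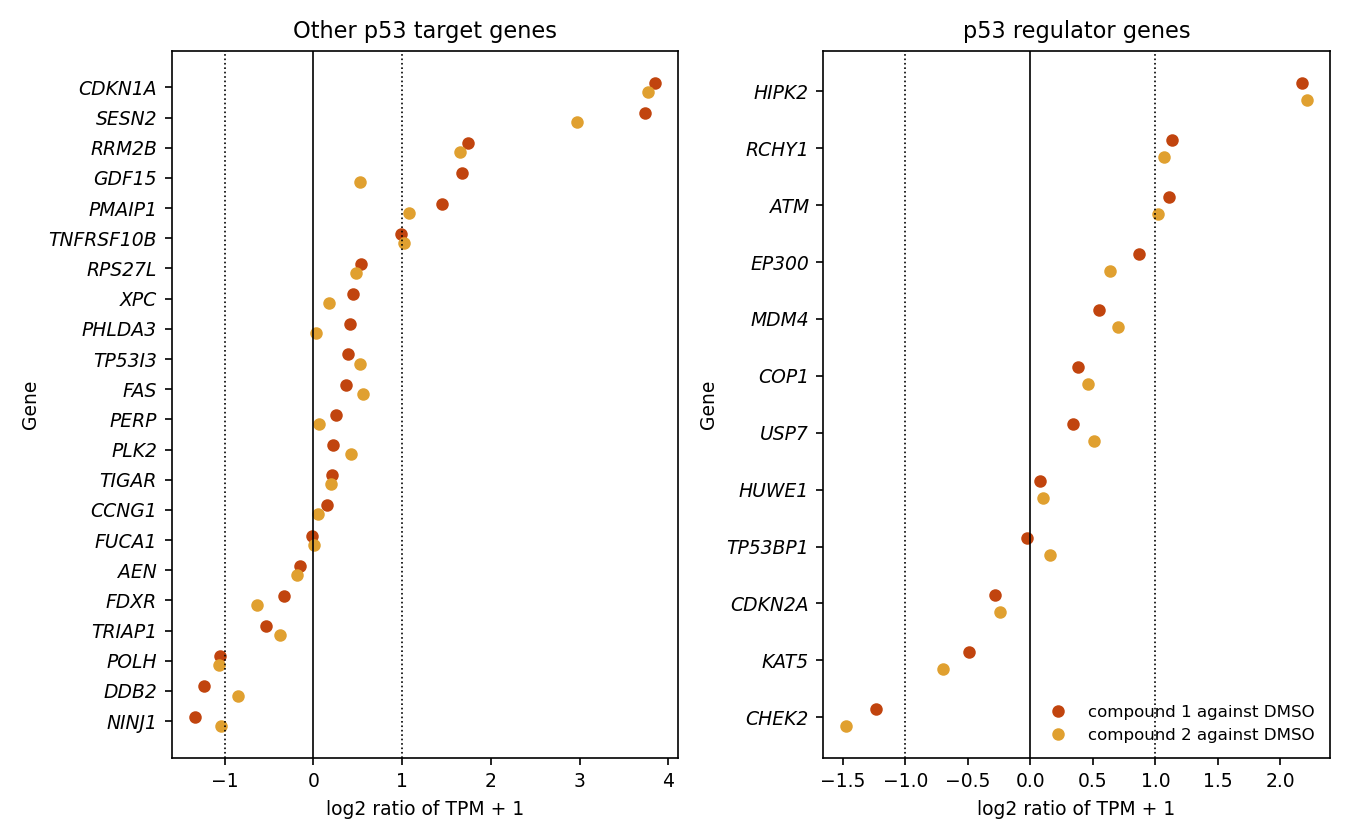
Log2 ratio of TPM + 1 against DMSO for the 22 measured other p53 targets and the 12 p53 regulators, with 1 point for compound 1 and 1 for compound 2, and dotted lines at 2-fold. CDKN1A and SESN2 lie far to the right of the other targets, HIPK2 leads the regulators, and NINJ1, POLH and CHEK2 lie beyond 2-fold on the left for both compounds.

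Candidates for likeness in pattern to the outermost members were the genes with a symbol among the 9619 that averaged 5 TPM or more. Nearness was the distance between the 2 log2 ratios against DMSO, which rests on 3 libraries. Nearest to PLK3, the member with the highest ratio after compound 1, were VIM (122, 153 and 23.6 TPM in the compound 1, compound 2 and DMSO libraries, distance 0.0948), DDX60L (distance 0.122) and CCDC71L (0.132). Nearest to SESN1, the member with the lowest, were GIPC1 (83.5, 108 and 111 TPM, distance 0.0176), HYI (0.0190) and CAMKK2 (0.0193). SESN1 itself averaged 1.57 TPM, under the limit set for these genes, and at such a level the added 1 TPM makes a ratio smaller. Its log2 ratio after compound 1 was -0.41, but -0.64 at a pseudocount of 0.1. The nearness to SESN1 thus holds for ratios of TPM + 1 only.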

How the data were processed

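Per the labels' protocols, Trizol-extracted RNA went into Illumina TruSeq RNA libraries. Bowtie 0.12.2 and the builds GRCh38.p12 and mm8 are listed, with no role or order, per the submitters' processing notes; for the annotation and counting step, the tools are not given in the sources used here. One table of 20332 genes was deposited by the authors with headers that name FPKM, but each column sums to 1000000, so the deposited values were treated as TPM. A few abundant genes that gain share lower the TPM of all others.

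Log2 ratios of TPM + 1 were computed for all 11600 genes that averaged 1 TPM or more, with Python 3.11.15 and pandas 2.3.3. One library per group allows no test, SD or interval. Of the gene identifiers, 20089 matched GENCODE 29, which supplied coordinates, lengths and GC content; the longest transcript stood for each gene. Promoters came from RefSeq. Scripts were tested on simulated data. The members and gene lists were chosen with earlier results of these data known. Named genes were the 9 members, the genes past 2-fold in the other lists (at most 8 of the other targets and 4 of any other list), relatives of members, and the 3 genes nearest in pattern to the highest and lowest member. The 9 alternatives covered pseudocount, filter, scaling, length and GC trend, and size called.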

Additional observations from a re-analysis of the deposited data

How the results depend on the processing

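No paired analysis was possible because each group had 1 library and no difference was tested. Over the 9 alternatives, none of the member ratios past 2-fold changed sign, and 228 of 234 member ratios stayed on the same side of 2-fold. The 6 others were those of MDM2 and ZMAT3 given above. A change of filter leaves a ratio as it was, and the ratios between the compounds ran only from -0.40 to 0.40. The 228 thus include ratios that could not move or could hardly do so. Less the length and GC trend, the count of members at least 2-fold higher was 2 of 9 after either compound, PLK3 and BBC3. It was 3 of 9 at a pseudocount of 5, where 8.49% and 6.93% of all genes were higher after compound 1 and compound 2. Of the 6 members that averaged 5 TPM or more it was 3, beside 15.4% and 13.4% of genes at that level. Under the other alternatives it was 4 of 9, where 7.35% to 28.2% of all genes were higher. The trend subtraction also changed the background, in which 8.46% of genes were higher and 8.98% lower after compound 1. After compound 2 these were 6.93% and 7.47%. The higher share of the calls after compound 1 was then 48.5%, where it was 64.5% without the subtraction. After compound 2 the higher share was 48.1%, where it was 65.8%. Median-of-ratios and upper-quartile scaling moved the median of all genes by at most 0.10, and both gave a higher share of 56.0% for compound 1.

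Counts in the other lists moved by over 1.5 times as follows. After compound 1, a pseudocount of 5 left 1 other target lower, 1 regulator higher and 0 lower, and the trend subtraction left 1 regulator higher. Beside these, 8.49% of all genes were higher and 4.83% lower at that pseudocount, and 8.46% higher with the trend subtracted. After compound 2, 3 other targets were higher under a pseudocount of 5, either scaling or the trend subtraction, and 1 regulator was higher under each of these. The share of all genes higher was 6.93% at that pseudocount and with the trend subtracted, 10.8% under median-of-ratios and 10.5% under upper-quartile scaling. Other targets lower numbered 0 at a pseudocount of 5, 1 with the trend subtracted and 4 at 1.5-fold. The shares of all genes lower were 3.72%, 7.47% and 15.8%, in that order. At 1.5-fold, 5 regulators were higher and 2 lower after compound 2, and 2 other targets were lower after compound 2 than after compound 1. At that limit 25.6% of all genes were higher and 15.8% lower after compound 2, and 3.14% were lower than after compound 1. A size limit of 1.5-fold admits more genes by construction; the cause of the other moves was not tested. With 1 library per group, culture-to-culture variation is unknown.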

Other observations

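Some relatives of the members stood far from them in level or direction and others did not. SESN2 stood at 90.7 times SESN1 after compound 1 and 35.1 times after compound 2, against 3.71 times in the DMSO library. The SESN1 levels in these ratios were low, at 1.14, 1.72 and 1.83 TPM in the compound 1, compound 2 and DMSO libraries. They would come from some 37.0, 49.2 and 55.5 reads, and no pseudocount was added to either gene. SESN3 did not pass 0.11 TPM in any library. BTG1, an antiproliferative relative of BTG2, was at 95.4, 66.2 and 16.3 TPM in the compound 1, compound 2 and DMSO libraries (log2 ratios 2.48 and 1.96). It stood at 31.8, 17.6 and 4.63 times BTG2. TOB1 had log2 ratios of 0.91 and 0.48, TOB2 of 0.61 and 0.54, and BTG3 of 0.76 and 1.00. Before rounding, BTG3 was just under 2-fold after compound 2 and was not counted as higher.

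Among the polo-like kinases, PLK1, which drives mitosis, was at 23.6, 32.2 and 156 TPM, and PLK4, which drives centriole duplication, at 6.08, 6.10 and 18.5 TPM. PLK1 was at 0.622 and 0.636 times PLK3 after compound 1 and compound 2, against 23.3 times in the DMSO library, while PLK2 had log2 ratios of 0.22 and 0.42. GADD45B, like GADD45A, stayed within 2-fold (0.59 and 0.52). Of the relatives of BAX, BAK1 was at 26.0, 26.3 and 26.4 TPM and BOK at 2.25, 1.41 and 2.69 TPM. Of the phosphatases related to PPM1D, PPM1B was at 30.6, 23.9 and 13.2 TPM, PPM1A at 41.1, 40.1 and 23.2 TPM, and PPM1G at 189, 222 and 329 TPM. ZMAT2 and ZMAT5 had log2 ratios between -0.08 and 0.08.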
